A study of Mus musculus with 12 samples.

Results

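The genes described here encode the main subunits of voltage-gated calcium channels, the proteins that let calcium into a neuron when its membrane is depolarised. They are 10 of the 35583 genes to which the deposited transcripts were assigned. They were chosen by name, with no threshold on their values but with earlier results of these data known. The list holds 7 genes for pore-forming α1 subunits (Cacna1a, Cacna1b, Cacna1c, Cacna1d, Cacna1e, Cacna1h and Cacna1i) and 3 for auxiliary α2δ subunits (Cacna2d1, Cacna2d2 and Cacna2d3). Their levels came from poly(A) RNA sequencing of dorsal root ganglia, the clusters beside the spinal cord that hold the cell bodies of sensory neurons. YAC Q84 mice carry human ATXN3, the gene of spinocerebellar ataxia type 3, with an expanded CAG repeat on a yeast artificial chromosome. All mice were 24 weeks old, and the 12 libraries were labelled as 1 Q84 male, 5 Q84 females, 3 wild-type (WT) males and 3 WT females. The labels do not give the zygosity of the transgene, the spinal level of the ganglia or whether ganglia or animals were pooled. Nor is it stated that the libraries stem from separate animals, so p-values here measure the spread between libraries, part of which may be technical.

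An α1 subunit forms the pore and holds the voltage sensor, so it sets the type of calcium current. Cav1 channels carry L-type current, Cav2 channels trigger transmitter release at nerve terminals, and Cav3 channels open near the resting potential and shape firing. The α2δ subunits lie outside the membrane, raise the number of channels at the surface, and include the binding sites of the pain drugs gabapentin and pregabalin.

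Total estimated counts ran from 66490481 to 86891563 per library. The genotype labels were checked with a 1000-base transcript of mouse Atxn3 that can take up reads of the transgene. Its level was 62.7 to 79.4 TPM (a transcript's abundance per length, scaled to a fixed total per library) in 5 libraries labelled Q84 and 0 to 0.285 TPM in 5 labelled WT. Going against their labels, Q84 female 5 had just 0.0612 TPM and WT female 2 had 34.0 TPM. Neither was moved to another group. The comparison of genotypes is therefore given for each member without these libraries (5 Q84 against 5 WT, called the 10 libraries) and with all 12 as labelled. All 14 general neuron markers had counts in every library, and their summed level was 9448 to 9806 CPM (estimated counts scaled to library size) in the 5 Q84 libraries and 9583 to 11850 CPM in the 5 WT libraries. Mitochondrial transcripts held 8.91 to 10.98% of counts in the 5 Q84 libraries and 6.85 to 9.55% in the 5 WT libraries. Q84 female 5, at 11.9%, was the highest of the 12, and WT female 2 held 7.53%. The part of the mitochondrial share in the results was not tested.

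Both called subunit genes were lower in Q84 ganglia: the α2δ gene Cacna2d3 and the α1 gene Cacna1i. Cacna2d3 fell to 33.5 ± 2.66 CPM in Q84 libraries, against 53.6 ± 4.94 CPM in WT libraries (SD, n = 5 each). Cacna1i, a gene of few counts, fell to 0.184 ± 0.084 CPM in Q84 libraries, against 0.837 ± 0.432 CPM in WT libraries (SD, n = 5 each). The most abundant subunit gene, Cacna2d1, differed by less than the spread between libraries. These were calls of edgeR's quasi-likelihood test with Benjamini-Hochberg adjustment over 18721 genes, at a threshold of 0.05. Of the 10 subunit genes, 2 were lower, 0 higher and 8 were not called, beside 6.45% of all tested genes called in either direction, 4.93% called lower and 1.52% called higher. DESeq2 called 2 of the 10, beside 10.3% of all genes, and limma-voom called 1, beside 5.97%. At an unadjusted p under 0.05, 3 subunit genes passed, beside 3786 of all 18721 tested genes. The median log2 fold change of the 10 genes was -0.28, and that of all tested genes was 0.01. With all 12 libraries as labelled no subunit gene was called by edgeR, where 0.0053% of genes were called in all. There 1 subunit gene, Cacna2d3, had an unadjusted p under 0.05, beside 2695 of all 18875 tested genes. DESeq2 called Cacna2d3, beside 3.28% of all genes, and limma-voom called none. The median of the 10 genes was -0.07 in that comparison, against 0.01 for all genes.

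**Figure D1:**
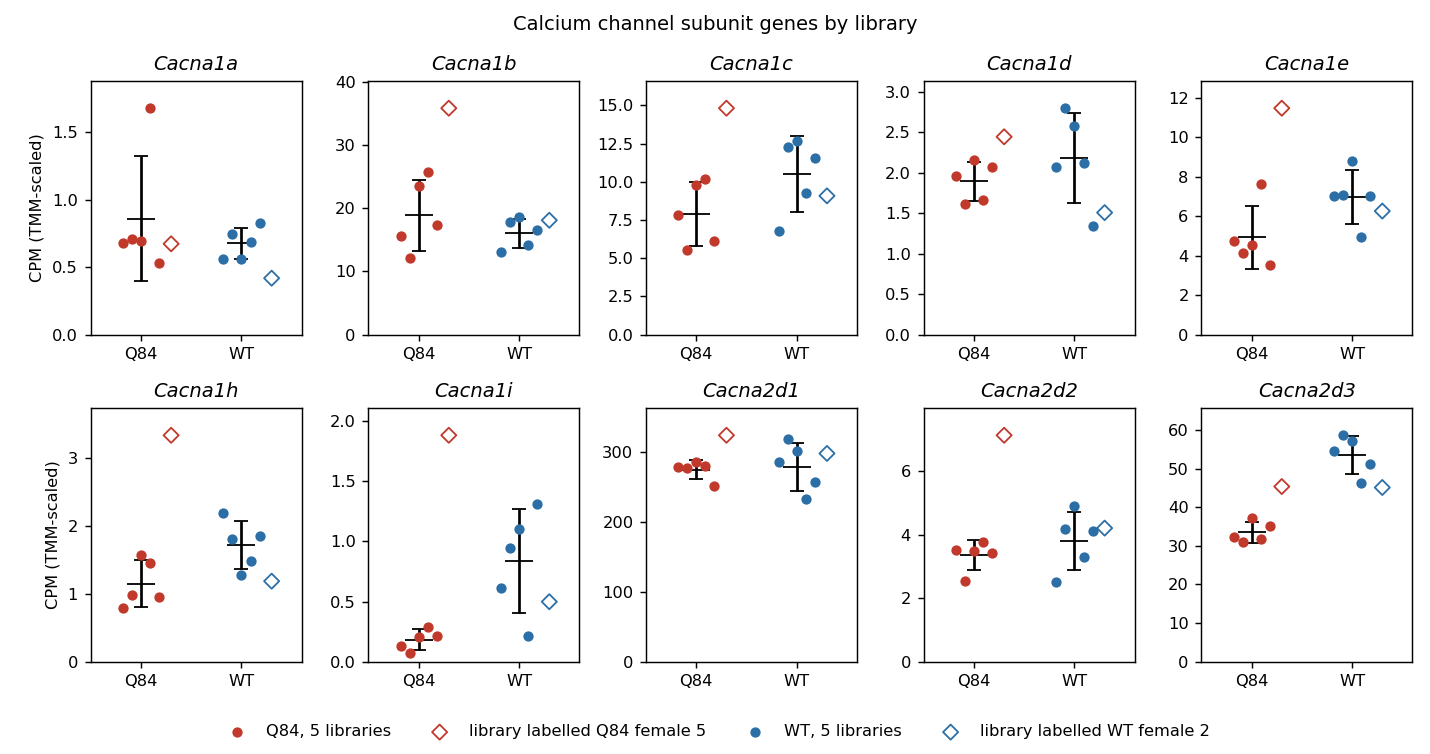
Level of each subunit gene in CPM (vertical axes, each from 0), with one point per library, Q84 left of WT. Horizontal marks and bars give the mean and SD of 5 libraries, and open diamonds are the libraries labelled Q84 female 5 and WT female 2. Only for Cacna2d3 do all 5 Q84 libraries lie below the lowest of the 5 WT libraries.

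**Figure D2:**
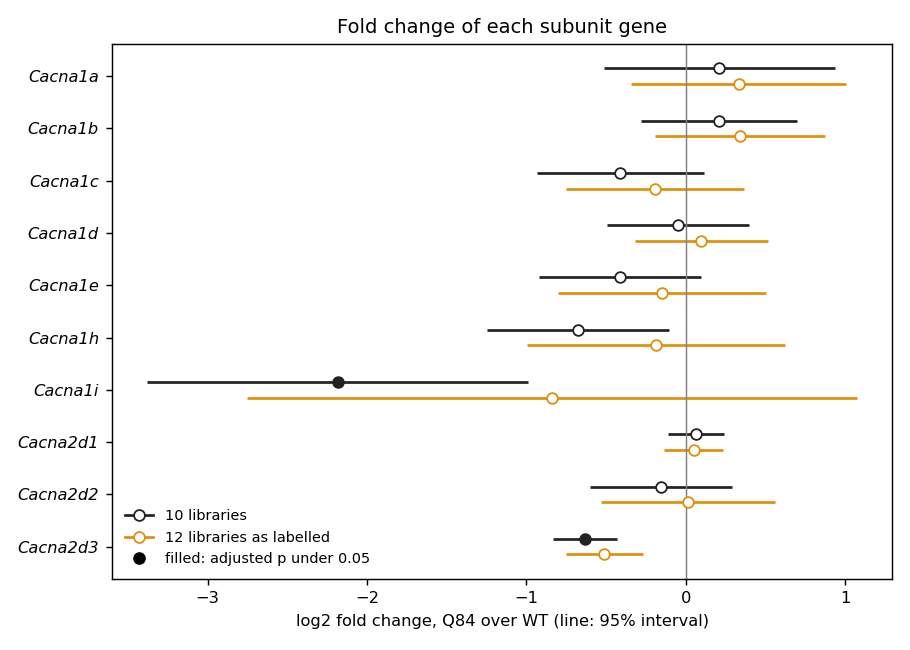
Log2 fold change of each subunit gene, Q84 over WT (horizontal axis), with its 95% interval, from edgeR with sex in the model. Black is for the 10 libraries and orange for all 12 as labelled. Filled points have an adjusted p under 0.05, which holds for Cacna2d3 and Cacna1i in the 10 libraries.

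Per transcript length, the 10 genes spanned a wide range of levels. Cacna2d1 averaged 64.0 TPM over the 12 libraries and ranged from 53.2 to 76.3 TPM. Cacna2d3 followed at 24.0 TPM, with a range of 16.0 to 33.3 TPM that did not reach that of Cacna2d1. Cacna1b averaged 3.13 TPM (1.82 to 5.95 TPM) and was the highest α1 gene. Below it stood Cacna1c at 1.45 TPM, Cacna2d2 at 1.05 TPM, Cacna1h at 0.993 TPM, Cacna1e at 0.744 TPM, Cacna1d at 0.727 TPM and Cacna1a at 0.726 TPM. From Cacna1b down to Cacna1a the range of each gene overlapped that of the next. Cacna1i was last at 0.0973 TPM, and its highest library, at 0.252 TPM, was below the lowest library of Cacna1a.

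These levels sum all transcript models of a gene, and the models that took the counts differed between genes. Protein-coding models held 97.9% of the estimated counts of Cacna2d1, 79.1% of those of Cacna2d3, 92.6% or more of those of Cacna1b, Cacna1c, Cacna1e and Cacna2d2, and 100% of those of Cacna1i. The share was 43.1% for Cacna1a, 18.1% for Cacna1d and 4.10% for Cacna1h. On coding models alone those 3 genes averaged 0.0561, 0.0634 and 0.0113 TPM. These means lay below that of Cacna1i, at 0.0973 TPM, with ranges that overlapped its own. Cacna1i was thus last over all models but not on coding models. The rest of their counts lay mostly on models that GENCODE M21 annotates as retained introns. That annotation belongs to an older build than the files name, and some models, among them one of Cacna1h, differ in length from the files, so the coding shares of Cacna1a, Cacna1d and Cacna1h depend on it.

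**Figure D3:**
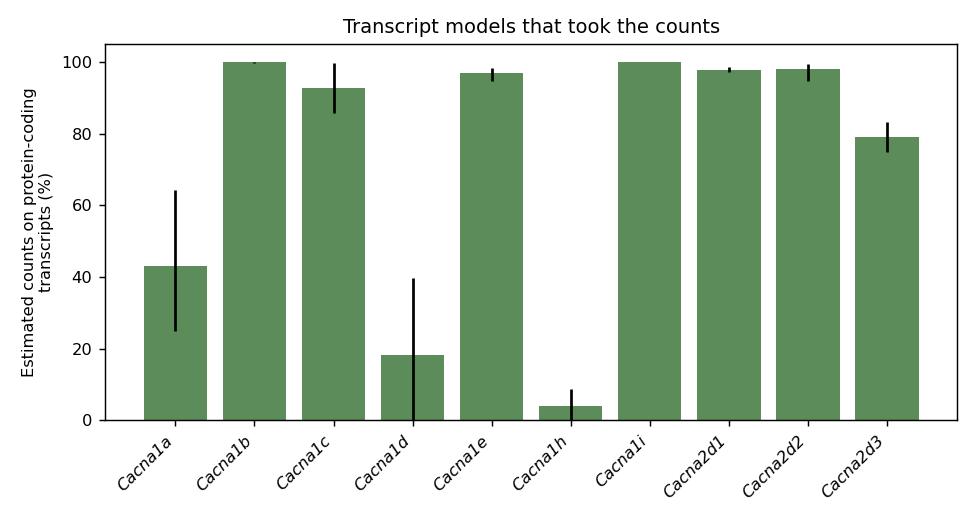
Share of each gene's estimated counts on protein-coding transcripts, in percent (vertical axis), over all 12 libraries (bars), with the lowest and highest library (lines). Cacna1h, at 4.10%, Cacna1d, at 18.1%, and Cacna1a, at 43.1%, stand below the other 7 genes.

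Among the Cav2 genes, Cacna1b encodes the N-type pore, the main presynaptic calcium channel of nociceptor terminals and the target of ziconotide. It had 15.6, 12.2, 23.5, 25.8 and 17.4 CPM in the 5 Q84 libraries, against 13.2, 17.8, 18.6, 14.2 and 16.5 CPM in the 5 WT libraries. The groups overlapped, with 2 Q84 libraries above the highest WT library and 1 below the lowest. The log2 fold change was 0.21 (SE 0.22, edgeR adjusted p = 0.676). The library labelled Q84 female 5 held 35.9 CPM, the highest of all 12, and with all libraries the log2 fold change was 0.34 (adjusted p = 0.581). Cacna1e, the R-type pore, had 4.76, 4.16, 4.57, 7.65 and 3.52 CPM in Q84 libraries, against 7.02, 7.06, 8.81, 4.97 and 7.01 CPM in WT libraries. In 4 of 5 Q84 libraries it lay below the lowest WT library, while Q84 female 3 lay within the WT range. Its log2 fold change of -0.41 (SE 0.23) did not pass (edgeR adjusted p = 0.361). It was -0.15 with all 12 libraries (adjusted p = 0.872), and Q84 female 5 held 11.5 CPM. Cacna1a, the P/Q-type pore whose repeat expansion in people causes spinocerebellar ataxia type 6, averaged 0.857 ± 0.464 CPM in Q84 libraries and 0.676 ± 0.115 CPM in WT libraries (SD, n = 5 each). Q84 female 3 alone stood at 1.68 CPM, and without it the log2 fold change of 0.21 (SE 0.33, edgeR adjusted p = 0.797) turned to -0.09. The 12-library value was 0.33 (adjusted p = 0.687). It rested on 31.1 to 115 counts per library.

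Of the Cav1 genes, Cacna1c, the L-type pore shared with heart and smooth muscle, averaged 7.89 ± 2.10 CPM in Q84 libraries and 10.5 ± 2.46 CPM in WT libraries (SD, n = 5 each). All 5 Q84 libraries lay below the WT mean and 2 below the lowest WT library. The log2 fold change was -0.41 (SE 0.24, edgeR adjusted p = 0.377). It was -0.20 with all 12 libraries (adjusted p = 0.791), and Q84 female 5 held 14.8 CPM, the highest of the 12. Cacna1d, an L-type pore that opens at lower voltages, averaged 1.89 ± 0.246 CPM in Q84 libraries and 2.18 ± 0.560 CPM in WT libraries (SD, n = 5 each), with overlapping groups. Its log2 fold change was -0.05 in the 10 libraries (adjusted p = 0.933) and 0.10 in all 12 (adjusted p = 0.873).

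The Cav3 genes carry T-type current. Cacna1i had 0.133, 0.0707, 0.208, 0.291 and 0.215 CPM in the 5 Q84 libraries, against 0.614, 0.945, 1.10, 0.212 and 1.31 CPM in the 5 WT libraries. WT female 1, at 0.212 CPM, lay within the Q84 range, and the other 4 WT libraries lay above every Q84 library of the 10. The log2 fold change was -2.19 (SE 0.54, 95% interval -3.38 to -0.99, edgeR adjusted p = 0.0359). The library labelled Q84 female 5 held 1.88 CPM, the highest of all 12, and WT female 2 held 0.498 CPM. With both included the log2 fold change was -0.84 (SE 0.87, adjusted p = 0.720). The gene rested on 5 to 140 counts per library, and the call was lost in 7 of the 10 fits that left out 1 library (WT male 2, WT male 3, WT female 3, Q84 male 1 or Q84 female 1, 2 or 4). Without WT female 3, the largest shift, its log2 fold change was -1.35 (adjusted p = 0.408).

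Cacna1h, the T-type pore best known from touch-sensing and pain-sensing neurons, had 0.787, 0.976, 1.57, 1.46 and 0.945 CPM in Q84 libraries, against 2.20, 1.81, 1.28, 1.49 and 1.85 CPM in WT libraries. All 5 Q84 libraries lay below the WT mean and 3 below the lowest WT library. The log2 fold change of -0.68 (SE 0.26) had an unadjusted p of 0.0242 and did not pass after adjustment (edgeR adjusted p = 0.167). The library labelled Q84 female 5, at 3.33 CPM, was again the highest of the 12, and with all libraries the log2 fold change was -0.19 (adjusted p = 0.869).

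The α2δ genes held the most abundant transcripts of the family. Cacna2d1, whose protein is the main binding site of gabapentin and accumulates in ganglia after nerve injury, had 280, 277, 286, 281 and 251 CPM in the 5 Q84 libraries. The 5 WT libraries had 286, 319, 301, 234 and 257 CPM. The Q84 values lay inside the WT range. The log2 fold change was 0.06 (SE 0.08, 95% interval -0.11 to 0.24, edgeR adjusted p = 0.737), and with all 12 libraries it was 0.05 (95% interval -0.14 to 0.23). A minor Cacna2d1 model annotated as a retained intron, which held 6.74% of the gene's TPM, had 3.30 ± 0.576 TPM in Q84 libraries and 5.06 ± 0.235 TPM in WT libraries (SD, n = 5 each). Q84 female 5 held 4.97 TPM of it, within the range of the 5 WT libraries (4.82 to 5.39 TPM), and WT female 2 held 4.95 TPM. That model was singled out after its values were seen and was not tested. Cacna2d2, which also binds gabapentin, averaged 3.35 ± 0.468 CPM in Q84 libraries and 3.80 ± 0.912 CPM in WT libraries (SD, n = 5 each). Its log2 fold change was -0.16 (SE 0.20, adjusted p = 0.741). Including all 12 libraries gave 0.01 (adjusted p = 0.990).

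Cacna2d3 encodes an α2δ subunit that does not bind gabapentin with high affinity and that was linked to heat pain in flies and mice. It had 32.3, 30.9, 37.3, 31.8 and 35.2 CPM in the 5 Q84 libraries, against 54.5, 58.7, 57.3, 46.4 and 51.2 CPM in the 5 WT libraries. The highest Q84 library was below the lowest WT library, which held for 5.93% of all tested genes in this direction. The log2 fold change was -0.63 (SE 0.09, 95% interval -0.83 to -0.43, edgeR adjusted p = 0.0016), a ratio of 0.646. Q84 female 5 and WT female 2 held nearly equal levels, 45.4 and 45.1 CPM. With all 12 libraries the log2 fold change was -0.51 (SE 0.11), all 6 Q84 libraries lay below the WT mean, and the call was lost (adjusted p = 0.0988). Among the female libraries of the 10 (4 Q84 against 2 WT) the log2 fold change was -0.51 (adjusted p = 0.0174). Among all female libraries as labelled (5 Q84 against 3 WT) it was -0.40 and did not pass (edgeR adjusted p = 0.3945). The call in the 10 libraries held in each of the 10 fits that left out 1 library, with log2 fold changes of -0.72 to -0.53.

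Cacna2d3 was read from a pair of main transcripts, which share a run of 1240 bases and then part. The long one has 3695 bases and encodes the whole protein. The short one has 1458 bases, is annotated as a target of non-stop decay, and runs on where the long one is spliced to its exon 20. The bases around that parting are shown because they tell the models apart, with shared bases in lower case and the bases of each model alone in capitals. They were read from the minus strand of GRCm38 with GENCODE M21, an older build than that of the deposited tables.
Cacna2d3 protein-coding transcript: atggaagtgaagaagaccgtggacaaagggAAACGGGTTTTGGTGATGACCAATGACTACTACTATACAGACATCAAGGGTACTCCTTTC
Cacna2d3 short transcript: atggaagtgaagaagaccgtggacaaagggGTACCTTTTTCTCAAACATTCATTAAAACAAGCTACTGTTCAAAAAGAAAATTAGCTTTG
The capitals lie at chr14:29063887-29063946 in exon 20 of the coding transcript and at chr14:29064187-29064246 in exon 15, the last, of the short one. All of these bases are annotated as coding. The coding transcript had 10.3 ± 1.28 TPM in Q84 libraries and 17.1 ± 2.19 TPM in WT libraries (SD, n = 5 each). The short transcript had 7.13 ± 1.20 TPM in Q84 libraries and 11.9 ± 1.44 TPM in WT libraries (SD, n = 5 each). The coding one ranged from 8.25 to 11.3 TPM in Q84 and from 14.4 to 19.9 TPM in WT libraries. Q84 female 5 held 13.1 TPM of the coding and 9.67 TPM of the short transcript, and WT female 2 held 15.1 and 10.8 TPM. The short one made up 34.6 to 45.2% of the gene's TPM in Q84 libraries and 36.7 to 42.3% in WT libraries, so its share overlapped between genotypes. Transcripts were described and not tested.

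The make-up of the α2δ group differed accordingly. Cacna2d3 made up 22.9 ± 2.20% of the summed TPM of the 3 α2δ genes in Q84 libraries and 30.7 ± 0.808% in WT libraries (SD, n = 5 each). The ranges were 20.6 to 25.6% in Q84 and 29.5 to 31.7% in WT. Q84 female 5 stood at 25.3% and WT female 2 at 26.4%, so the 6 labelled Q84 libraries stayed below the 6 labelled WT libraries. The share was smaller in other units, with 10.8% in Q84 libraries and 16.0% in WT libraries on estimated counts, and 8.84% in Q84 libraries and 13.4% in WT libraries on estimated counts of protein-coding transcripts (n = 5 each). In the α1 group Cacna1b made up 43.1 ± 5.60% of the summed TPM in Q84 libraries and 33.0 ± 4.43% in WT libraries, with overlapping ranges (SD, n = 5 each), and 44.0% in the 6 labelled Q84 libraries and 34.3% in the 6 labelled WT libraries. The Cav3 members, Cacna1h and Cacna1i, made up 10.7 ± 1.76% in Q84 libraries and 16.2 ± 3.60% in WT libraries, also with overlapping ranges (SD, n = 5 each). Their share was 11.8% in the 6 labelled Q84 libraries and 15.6% in the 6 labelled WT libraries. Summed α1 levels were 7.11 ± 1.59 TPM in Q84 libraries and 7.95 ± 1.33 TPM in WT libraries (SD, n = 5 each). The order turned with all 12 libraries, at 7.97 TPM in Q84 and 7.76 TPM in WT, and Q84 female 5 held 12.3 TPM. The α1 shares and sums count all transcript models of the listed α1 genes and leave out Cacna1f, Cacna1g and Cacna1s. Cacna1g, also a Cav3 gene, went the other way from the Cav3 members without being called. It had 0.151 ± 0.051 CPM in Q84 libraries and 0.0845 ± 0.056 CPM in WT libraries (SD, n = 5 each). Its log2 fold change was 0.93 (edgeR adjusted p = 0.454), and 1.16 with all 12 libraries (adjusted p = 0.350). Of the estimated counts, coding models held 4.10% for Cacna1h, 18.1% for Cacna1d and 43.1% for Cacna1a. No α1 share on coding models alone was computed, so the Cav3 and Cacna1b shares may differ there. The shares of both groups were chosen after the values were seen and carry no test.

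**Figure D4:**
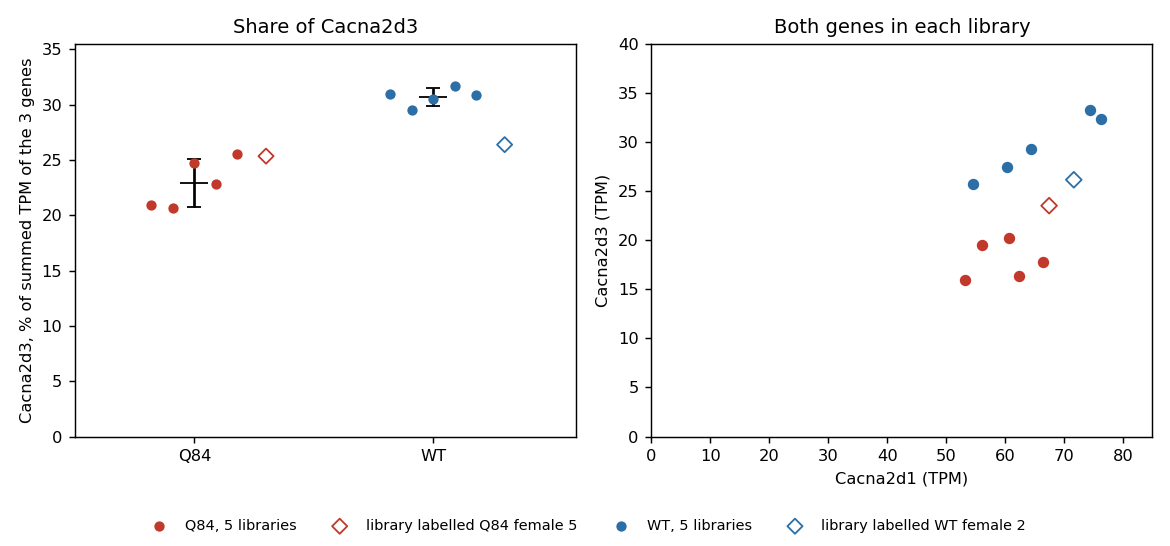
Left, Cacna2d3 as a percentage of the summed TPM of Cacna2d1, Cacna2d2 and Cacna2d3, one point per library, with mean and SD of 5 libraries, Q84 left of WT. Right, TPM of Cacna2d3 (vertical) against TPM of Cacna2d1 (horizontal) in each library, and open diamonds are the libraries that went against their label. The Q84 libraries lie at 20.6 to 25.6% and the 5 WT libraries at 29.5 to 31.7%.

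The library labelled Q84 female 5 held the highest level of 7 of the 10 genes (Cacna1b, Cacna1c, Cacna1e, Cacna1h, Cacna1i, Cacna2d1 and Cacna2d2), while it was the highest library for 15.5% of all tested genes. Q84 female 1 was the lowest library for 4 of the 10 (Cacna1b, Cacna1c, Cacna1i and Cacna2d3) and for 8.25% of all tested genes. For Cacna2d3 the 6 highest libraries were the 5 WT libraries and Q84 female 5. In the 10 libraries, 7 of the 10 genes had a negative log2 fold change, and in the 12 libraries 5 did.

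**Figure D5:**
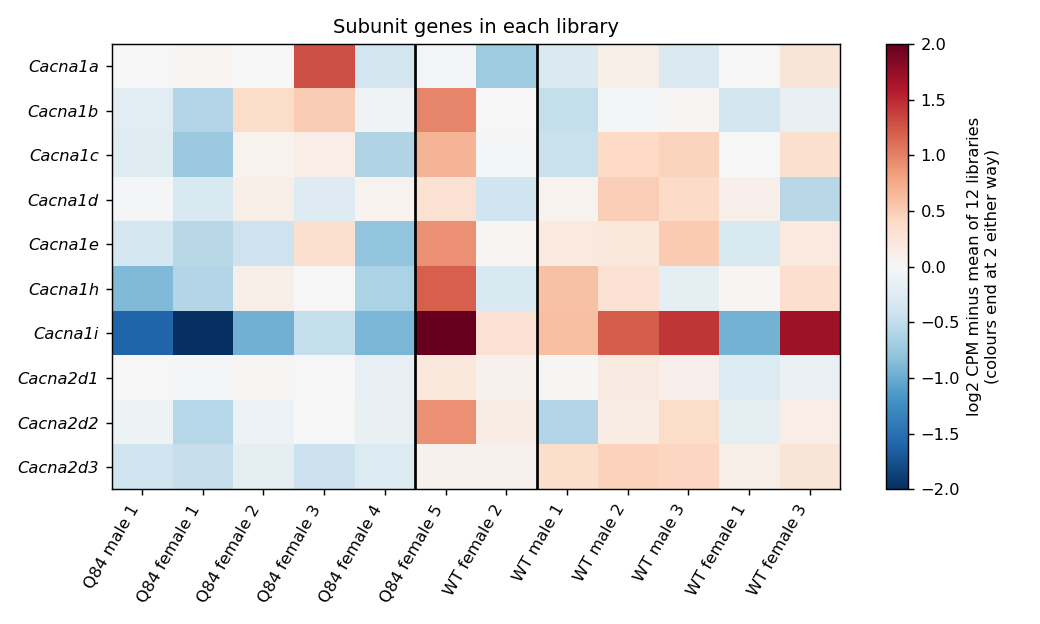
Log2 CPM of each subunit gene minus its mean over the 12 libraries (colour), with 5 Q84 libraries at the left, the libraries labelled Q84 female 5 and WT female 2 in the middle and 5 WT libraries at the right. Cacna1i varied over the widest colour range, and Q84 female 5 is the highest library for 7 of the 10 genes.

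Sex was compared between 4 male and 8 female libraries, with genotype in the model. No subunit gene was called by edgeR, where 0.0636% of all genes were called. None had an unadjusted p under 0.05, beside 721 of all 18875 tested genes, and neither DESeq2 nor limma-voom called one. Cacna1d had the largest difference, a male over female log2 fold change of 0.38 (edgeR adjusted p = 1), at 2.35 ± 0.399 CPM in males (n = 4) and 1.87 ± 0.385 CPM in females (n = 8, SD). Only 1 of the males was labelled Q84.

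The other subunit genes were described beside the members. Over all tested genes of the 10 libraries, edgeR called 6.45% (4.93% lower, 1.52% higher), DESeq2 10.3% and limma-voom 5.97%. With all 12 libraries these shares were 0.0053%, 3.28% and 0.0053%. An unadjusted p under 0.05 was held by 3786 of 18721 genes in the 10 libraries and 2695 of 18875 in the 12. These values stand beside the counts of this and the later lists. The β subunits bind α1 from the cytoplasm and bring it to the membrane, the γ subunits are related proteins that mostly serve glutamate receptors, and Nalcn is a sodium leak channel of the same superfamily. The list of 18 genes also held the α1 genes Cacna1f, Cacna1g and Cacna1s, the α2δ gene Cacna2d4, and Cachd1. Of the 18, 17 were tested in the 10 libraries, 1 rose and 1 fell by edgeR, and DESeq2 called 4 and limma-voom 3. Their median log2 fold change was 0.13, against 0.01 for all genes. Cacnb4, the β4 subunit, fell to 184 ± 7.48 CPM in Q84 libraries, against 265 ± 20.6 CPM in WT libraries (SD, n = 5 each). Its log2 fold change was -0.53 (SE 0.07, edgeR adjusted p = 0.0011), and the call held with each library left out in turn. The other β genes did not pass and differed in sign. The log2 fold change was -0.52 for Cacnb3 (edgeR adjusted p = 0.0503), 0.37 for Cacnb2 (adjusted p = 0.0823) and 0.17 for Cacnb1 (adjusted p = 0.734). Nalcn rose to 116 ± 10.2 CPM in Q84 libraries, against 81.4 ± 8.54 CPM in WT libraries (SD, n = 5 each), with a log2 fold change of 0.55 (edgeR adjusted p = 0.0042). Without Q84 male 1 that call was lost (log2 fold change 0.48, adjusted p = 0.0519). Q84 female 5 held 287 CPM of Cacnb4 and 81.7 CPM of Nalcn, and WT female 2 held 230 and 106 CPM. With all 12 libraries edgeR, DESeq2 and limma-voom called 0 of the 18, and 3 had an unadjusted p under 0.05. The muscle channel genes Cacng1 and Cacna1s varied widely in Q84 libraries, at 1.39 ± 1.90 and 1.41 ± 1.97 CPM (SD, n = 5), against 0.197 ± 0.295 and 0.385 ± 0.432 CPM in WT libraries (SD, n = 5). The sum of skeletal muscle markers ran from 4.06 to 928 CPM in the same Q84 libraries and from 4.29 to 267 CPM in the WT libraries. The part of muscle RNA in these genes was not tested.

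Among 27 regulators and presynaptic partners of the channels, 1 rose and 4 fell by edgeR in the 10 libraries, DESeq2 called 6 and limma-voom 5, and the median log2 fold change was -0.02. The genes that fell were Rem2, a small GTPase that inhibits high-voltage channels (-0.89, edgeR adjusted p = 0.0091), Rims1, which tethers Cav2 channels at release sites (-0.55, adjusted p = 0.0138), Cabp1, a calmodulin-like calcium sensor (-0.60, adjusted p = 0.0409), and Stac2, an adaptor of L-type channels (-0.81, adjusted p = 0.0464). Thbs2, a thrombospondin of the family that binds α2δ-1, rose (0.77, adjusted p = 0.0244). Each of these 5 calls was lost when Q84 male 1 was left out, and those of Rims1 and Thbs2 also without WT female 3. Without Q84 male 1 the log2 fold change of Thbs2 was 0.37 (adjusted p = 0.238). Cabp1 and Stac2 lost the call in 8 of the 10 fits that left out 1 library. With all 12 libraries edgeR called none of the 27, 6 had an unadjusted p under 0.05, DESeq2 called 3 and limma-voom none.

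Of 42 calcium handling genes edgeR called 5 lower and none higher in the 10 libraries, DESeq2 called 10 and limma-voom 5, and the median log2 fold change was -0.13. Calb1, encoding the buffer calbindin, fell to 75.0 ± 9.16 CPM in Q84 libraries, against 124 ± 13.6 CPM in WT libraries (SD, n = 5 each, edgeR adjusted p = 0.000166). Calb2, encoding calretinin, fell to 2.86 ± 0.790 CPM in Q84 libraries, against 13.1 ± 4.74 CPM in WT libraries (SD, n = 5 each, adjusted p = 0.0022). Both calls held with each library left out in turn. The others were the calcium pump Atp2b1 (-0.29, adjusted p = 0.0241), the calcineurin subunit Ppp3ca (-0.43, adjusted p = 0.0261) and the sodium-calcium exchanger Slc8a1 (-0.71, adjusted p = 0.0287), and each of these 3 was lost without Q84 male 1 and without WT female 3. Of the 10 fits that left out 1 library, Atp2b1 and Slc8a1 lost the call in 6 and Ppp3ca in 3. With all 12 libraries edgeR called none of the 42, 9 had an unadjusted p under 0.05, DESeq2 called 2 and limma-voom none.

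Some markers of sensory neuron types were also lower. In the 10 libraries 12 of 16 non-peptidergic nociceptor markers were lower, with a summed level of 581 to 807 CPM in Q84 libraries and 875 to 1599 CPM in WT libraries. The counts lower were 5 of 11 for peptidergic nociceptors, 5 of 15 for large myelinated neurons, a list that also holds Calb1, and 4 of 8 for C-fibre touch neurons. Gfra2, called lower, is on both the non-peptidergic and the C-fibre touch lists, so it enters both counts and both sums. The other markers were not called, and 1 peptidergic and 1 large myelinated marker had a positive log2 fold change. Their summed levels did not overlap, at 1451 to 2123 against 2665 to 3279 CPM, 1933 to 2430 against 2553 to 3192 CPM, and 272 to 328 against 378 to 714 CPM, Q84 against WT in each case. None of the markers on these 4 lists was at 0 in any library. With all 12 libraries edgeR and limma-voom called none of them, DESeq2 called 2 non-peptidergic, 3 peptidergic and 1 large myelinated marker, and the counts with an unadjusted p under 0.05 were 10, 6, 5 and 3, in the order given above. Q84 female 5 held 1595 CPM of the non-peptidergic sum and 3910 CPM of the large myelinated sum, and WT female 2 held 1238 and 2897 CPM. For the peptidergic and C-fibre touch sums Q84 female 5 held 2658 and 729 CPM. WT female 2, at 2246 and 374 CPM, lay below the 5 WT libraries in both. With all 12 libraries as labelled, each of the 4 sums overlapped between genotypes. None of the 14 general neuron markers was called by edgeR, DESeq2 or limma-voom in the 10 libraries, and 1 had an unadjusted p under 0.05. Among markers of other cells, 1 fibroblast gene was higher and 1 mural or endothelial gene higher and 1 lower in the 10 libraries. The lower one was Rgs5, a pericyte gene, at 147 CPM in Q84 libraries and 381 CPM in WT libraries, and the higher one was Abcc9 (log2 fold change 0.85), both named after their values were seen. The summed mural and endothelial level, much of it Rgs5, was 250 to 314 CPM in Q84 libraries and 418 to 594 CPM in WT libraries. Only 2 of these 11 markers had a negative log2 fold change, and their median was 0.54. EdgeR called no satellite glia, Schwann cell, macrophage, skeletal muscle, red blood cell or adipocyte marker there. Unadjusted p-values under 0.05 numbered 1, 0, 2, 0, 5 and 2 in that order, and DESeq2 and limma-voom each called 1 red blood cell and 1 adipocyte marker. The part of neuron type and of other cells in the levels of Cacna2d3 and Cacna1i was not tested, and in whole-ganglion RNA fewer cells of a type and less RNA per cell cannot be told apart.

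The 5 genes whose levels followed Cacna2d3 most closely over the 12 libraries were taken from 10432 genes with a mean of at least 5 CPM, by the mean absolute difference of centred log2 CPM. They were Fstl1, a secreted glycoprotein (0.0683), Gm14440 (0.0756), Ttc39c (0.0770), Kcnip1, an auxiliary subunit of Kv4 potassium channels (0.0785), and the protocadherin Pcdhac1 (0.0851), and the median over all candidates was 0.324. Each had a negative log2 fold change in the 10 libraries, from -0.68 for Kcnip1 to -0.49 for Pcdhac1. That sign follows from choosing them by likeness to Cacna2d3 over the same libraries and is no separate result.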

How the data were processed

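Poly(A) RNA of 12 libraries was quantified by the authors, and per the submitters' processing notes GRCm39 was the build, with STAR 2.7.10b and kallisto 0.46.2 listed and no role given for either. The deposited tables hold estimated counts and TPM for 116313 transcripts, per the file headers, with lengths that entered only the length-scaled alternative. No source used here gives the transcript release. Transcripts were assigned to genes by Ensembl identifier in GENCODE M21 (98.3% matched, and unmatched ones held 0.751 to 0.804% of counts). Kallisto divides shared reads by likelihood, so transcript values of low genes are uncertain.

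Estimated counts were summed per gene, rounded, filtered for low counts with filterByExpr, given the 4 combinations of sex and genotype (all 10 members passed), scaled with TMM and tested with edgeR 4.0.16 (quasi-likelihood, robust, sex and genotype in the model, Benjamini-Hochberg, threshold 0.05) in R 4.3.3. The script was tested on simulated data. CPM are TMM-scaled over 12 libraries, and fold changes are fitted. DESeq2 1.42.0, limma-voom 3.58.1, other scalings and filters, single-sex and blocked fits and leaving out each library were alternatives, while counting protein-coding transcripts only, the 10 libraries for sex and the settings tried on shares of Cacna2d3 were added after the data were seen.

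The members and gene lists were chosen with earlier results of these data known. Named were all members, every called gene of the other subunit, regulator and calcium lists, and the 5 genes most like the called member of smallest p. Marker lists are given as counts and sums. Cacna1g, Cacnb1, Cacnb2, Cacnb3, Cacng1, Cacna1s, Gfra2, Rgs5 and Abcc9 were named after their values were seen. No 2 libraries of a group agreed within sampling noise (chi-square per degree of freedom 28.9 or more). Depth limits genes of few counts such as Cacna1i.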

Additional observations from a re-analysis of the deposited data

Results flagged for a closer look

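Of 40 pairs of subunit gene and group, 7 held a library set apart from the rest of its group by Dixon's gap criterion, which chance alone flags in about 5% of groups. The groups with and without the libraries that went against their label overlap, so the pairs are not independent. Cacna1a stood at 1.68 CPM in Q84 female 3, and the nearest Q84 library had 0.707 CPM, both among the 6 labelled and among the 5. In Q84 female 5, Cacna1h stood at 3.33 CPM with the nearest Q84 library at 1.57 CPM, Cacna1i at 1.88 CPM with the nearest at 0.291 CPM, and Cacna2d2 at 7.12 CPM with the nearest at 3.77 CPM. Among the 5 Q84 libraries, Cacna2d1 was lowest in Q84 female 4, at 251 CPM with the nearest at 277 CPM. Cacna2d2 was lowest in Q84 female 1, at 2.55 CPM with the nearest at 3.42 CPM. Q84 female 5 is the library labelled Q84 that held 0.0612 TPM of the Atxn3 transcript.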

How the results depend on the processing

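Beside 1 gene called in the 12 libraries, 15 were called with no filter, 620 with DESeq2, 13 with scaling on general neuron markers, 0 with females only and 193 with no sex term. The replicate block gave 142, and 158 against 1208 in the 10 libraries, where DESeq2 gave 1934. That block joined libraries of the same sex and replicate number. WT male 2, WT male 3, Q84 female 4 and Q84 female 5 had no partner of the other genotype. They therefore did not inform its genotype difference, nor did Q84 female 2 in the 10 libraries. The blocked fits thus compared fewer libraries than the others. Q84 and WT females of the same replicate number (1 to 3) had r of -0.13 to 0.09, and those of unlike number -0.17 to 0.17. Males were not examined, so pairing by number was not settled. Neuron-marker scaling moved the median of all genes to 0.11 (12 libraries) and 0.12 (10), and the 10-library calls to 399 higher and 619 lower, against 285 and 923. With that scaling Cacna2d3 was still called lower in the 10 libraries (log2 fold change -0.52, edgeR adjusted p = 0.0081). The test was against 0 and not against the moved median. For sex DESeq2 called 21 genes.

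Of the members, 1 (Cacna2d3) was called lower in the 12 libraries with DESeq2 (adjusted p = 0.0039) and with no sex term (adjusted p = 0.0320). In the 10 libraries 1 was called with limma-voom, length-scaled TPM or females only, where Cacna1i was lost, and 0 with the replicate block (Cacna2d3 -0.68, adjusted p = 0.0674, Cacna1i -2.02, adjusted p = 0.0869).

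Signs of several uncalled genes turned. In the 12 libraries Cacna2d2 turned to -0.028 (limma-voom), -0.047 (length-scaled TPM) and -0.074 (replicate block), Cacna1a to -0.21 (length-scaled TPM), Cacna1d to -0.061 (no sex term), and with females only Cacna1e to 0.049, Cacna1h to 0.14 and Ppp3ca to 0.10. In the 10 libraries Cacna1d turned to 0.062 (neuron-marker scaling), 0.13 (females only) and 0.46 (coding transcripts), Cacna1a to -0.32 (length-scaled TPM) and Cacna2d1 to -0.023 (no sex term). For sex Cacna1d turned to -0.21 (coding transcripts). The causes were not tested.

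Leaving out 1 library gave 0 to 1082 calls in the 12 libraries (1082 without Q84 female 5), 681 to 1980 in the 10 (681 without Q84 male 1, 1980 without WT male 1) and 6 to 23 for sex. Members called lower were 0 to 2 in the 12, with Cacna2d3 and Cacna1i called only without Q84 female 5, and 1 to 2 in the 10. In those fits the log2 fold change crossed 0 for Cacna1d (-0.027 to 0.26), Cacna1e (-0.40 to 0.048), Cacna1h (-0.53 to 0.14), Cacna2d1 (-0.017 to 0.11), Cacna2d2 (-0.20 to 0.10) and Ppp3ca (-0.39 to 0.098) in the 12 libraries, and for Cacna1a (-0.085 to 0.32), Cacna1d (-0.26 to 0.11) and Cacna2d1 (-0.021 to 0.16) in the 10.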
